A study of Homo sapiens with 29 samples.

Results

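The genes described here encode the machinery of oxidative phosphorylation. They were chosen by name, as protein-coding rows with symbols of the NDUF, SDH, UQCR, COX and ATP5 families together with CYCS and CYC1, and the 13 protein-coding rows of the mitochondrial chromosome were added. The rule found 97 of 63677 features, of which 84 are encoded in the nucleus and 13 in mitochondria. The nuclear genes comprised 36 of complex I, 4 of complex II, 10 of complex III, 15 of complex IV, 18 of complex V and the cytochrome c gene CYCS. The mitochondrial genes comprised 7 of complex I, 1 of complex III, 3 of complex IV and 2 of complex V. Another 63 rows with matching names are pseudogenes and were left out. Their counts came to between 0.03% and 0.15% of those of the nuclear genes in a library.

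Oxidative phosphorylation couples the transfer of electrons along the inner mitochondrial membrane to the making of ATP. Complexes I and II take electrons from NADH and succinate, complex III passes them to cytochrome c, complex IV hands them to oxygen, and complex V, the ATP synthase, uses the proton gradient that results. Apart from complex II, each complex is built from subunits of both genomes, and the mitochondrial genes are transcribed as long precursors by a polymerase of their own and cut into single mRNAs.

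RNA was sequenced from 29 libraries of the prostate cancer cell lines C4-2, which grew from LNCaP cells in castrated hosts, and 22Rv1, which came from a relapsed xenograft. C4-2 cells were controls (Ctrl) or had the androgen receptor antagonist enzalutamide (Enza), 1 of the inhibitors NU7441, CC-115 and CC-223, or Enza with 1 of these, in 3 libraries per group. For 22Rv1 cells the groups were Control (3 libraries) and CC-115 (2 libraries). Compounds were given at 1 µM for 24 h, in medium with hormones. NU7441 is known as an inhibitor of DNA-PK, CC-223 as a TOR kinase inhibitor, and CC-115 as an inhibitor of both kinases. What the control cells received is not given in the sources used here.

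Libraries held 29580404 to 44912917 counts. None of 10 luminal prostate markers was at 0 in a group, and their summed level was 2261 to 12767 CPM (counts scaled to library size, with TMM factors). The 12 stromal, immune and endothelial markers summed to 3.85 to 17.7 CPM. Every level is a share of a bulk library, so that fewer cells or mitochondria and less RNA in each cannot be told apart. Enza replicate 1 and CC-115+Enza replicate 1 stood apart from their groups. In the Enza libraries the mitochondrial mRNAs summed to 1314, 6354 and 7780.5 CPM, with replicate 1 lowest. In the CC-115+Enza libraries they summed to 10001, 4833 and 6073 CPM and the nuclear genes to 4647, 7899 and 8298 CPM, with replicate 1 highest in the first and lowest in the second. Where leaving both out changed a count of calls, the count without them stands beside the result or in the closing section.

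Promoters are shown for a few genes on which the results turn, since NRF1, GABPA (an ETS factor) and YY1 are known regulators of respiratory genes. RefSeq promoters of build GRCh38.p14 were used, from 250 bases before to 50 bases after the start. Nuclear genes on a chromosome set aside beforehand were left out, so a missing gene need not be a failed match. The set kept held 67 of the 84 nuclear genes, as 79 promoters. The NRF1 word GCGCATGC, searched like the others on both strands, was in 20.3% of these and in 3.05% of all 35116 promoters in the table. The ETS word CCGGAAGT was in 15.2% and 4.14%, the YY1 word AAGATGGC in 16.5% and 2.89%, and the E-box CACGTG in 8.86% and 7.26%. The chromosome set aside was kept among all promoters, so these shares do not come from like sets. Among the 61 promoters of genes that fell with CC-115 in C4-2, a result given further on, 21.3% held the NRF1 word, 18% the ETS word and 16.4% the YY1 word. Among the 18 promoters of the other nuclear genes, which are all those not called lower, the shares were 16.7%, 5.56% and 16.7%. The ETS shares stand for 11 of 61 and 1 of 18 promoters, too few to read a difference from. A match describes letters only, and its absence says nothing of binding. Shown are the 250 bases before the start, 5′ to 3′, for cytochrome c, for SDHD, a membrane anchor of complex II, for the complex IV subunit COX5B, and for the ATP synthase c-subunit genes ATP5MC1, which fell with CC-115, and ATP5MC2, which did not pass the test. Capitals mark whole NRF1 and ETS words within the stretch.
CYCS, chr7:25125261-25125510, minus strand: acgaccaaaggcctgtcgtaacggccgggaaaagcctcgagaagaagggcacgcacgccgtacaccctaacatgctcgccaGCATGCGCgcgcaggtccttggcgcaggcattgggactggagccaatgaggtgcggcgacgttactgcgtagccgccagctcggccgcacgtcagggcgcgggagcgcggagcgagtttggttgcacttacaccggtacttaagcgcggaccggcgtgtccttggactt
SDHD, chr11:112086623-112086872, plus strand: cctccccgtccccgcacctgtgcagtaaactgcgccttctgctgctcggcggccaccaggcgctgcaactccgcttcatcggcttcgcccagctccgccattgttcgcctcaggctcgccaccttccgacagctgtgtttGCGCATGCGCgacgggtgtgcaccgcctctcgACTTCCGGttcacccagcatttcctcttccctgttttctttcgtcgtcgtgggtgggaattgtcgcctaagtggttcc
COX5B, chr2:97645812-97646061, plus strand: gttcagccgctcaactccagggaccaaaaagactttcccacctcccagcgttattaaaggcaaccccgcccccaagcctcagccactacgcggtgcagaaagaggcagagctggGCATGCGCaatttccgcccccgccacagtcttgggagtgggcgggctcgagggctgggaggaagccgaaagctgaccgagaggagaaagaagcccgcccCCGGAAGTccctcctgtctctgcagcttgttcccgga
ATP5MC1, chr17:48892537-48892786, plus strand: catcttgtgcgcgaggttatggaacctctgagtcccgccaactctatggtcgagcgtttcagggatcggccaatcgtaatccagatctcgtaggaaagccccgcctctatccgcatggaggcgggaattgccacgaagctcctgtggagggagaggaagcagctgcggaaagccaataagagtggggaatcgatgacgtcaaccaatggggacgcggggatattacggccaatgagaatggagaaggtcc
ATP5MC2, chr12:53676084-53676333, minus strand: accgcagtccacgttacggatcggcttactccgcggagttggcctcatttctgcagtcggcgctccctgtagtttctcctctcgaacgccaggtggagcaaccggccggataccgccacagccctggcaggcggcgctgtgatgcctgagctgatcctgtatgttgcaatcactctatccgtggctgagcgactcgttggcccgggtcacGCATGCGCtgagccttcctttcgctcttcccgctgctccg
Counted from the start, the NRF1 word began at position -169 of CYCS, -136 of COX5B and -40 of ATP5MC2. In SDHD overlapping NRF1 words began at -110 and -108, and an ETS word at -78. ETS words of COX5B began at -37 and at -5, the latter running past the start. The stretch shown for ATP5MC1 held none of the words, and an E-box lay at position 5 after its start.

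In C4-2 Ctrl cells the mitochondrial complex IV genes had the highest mRNA levels of the set per length. MT-CO3 was at 3467 ± 539 CPM per kb (SD, n = 3), MT-CO1, the catalytic subunit, at 1445 ± 253 and MT-CO2, which takes electrons from cytochrome c, at 1382 ± 267. MT-CO1 and MT-CO2 differed by less than the spread between libraries. The highest nuclear gene was ATP5F1B, the catalytic beta subunit of ATP synthase, at 787 ± 49.6 CPM per kb. The median was 215 CPM per kb over the mitochondrial and 52 over the nuclear genes. In 22Rv1 Control the medians were 62.4 and 42.1, with MT-CO3 at 1956 ± 409 and ATP5F1B next at 1243 ± 22. Lengths were those in the deposited tables.

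Isoforms known from other tissues were low. In C4-2 Ctrl the muscle form COX7A1 was at 0.407 ± 0.153 CPM (SD, n = 3) and the testis form COX6B2 at 0.155 ± 0.194. COX6A2 was at 0, 0 and 0.0279 CPM and COX8C at 0, 0.0315 and 0 CPM, and neither was tested. COX7B2 was at 3.1, 2.96 and 2.26 CPM in C4-2 Ctrl and had no count in 22Rv1 Control. In all, 82 nuclear and 13 mitochondrial genes passed the filter on low counts in C4-2, and 80 and 13 in 22Rv1, where COX6B2 and COX7B2 did not pass either.

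CC-115 lowered most nuclear genes of oxidative phosphorylation in C4-2. Their summed level was 15969, 14726 and 13774 CPM in Ctrl and 8751, 8278 and 8495 CPM in CC-115, without overlap. The mitochondrial mRNAs summed to 6113, 7314 and 8468 CPM in Ctrl and 8925, 9130.3 and 8661 CPM in CC-115, where all libraries lay above Ctrl. MT-CO1, MT-CO2 and MT-CO3 made up 82.1, 77.8 and 82.3% of this sum in Ctrl and 87.4, 86.4 and 86.4% in CC-115. The sum thus mostly tracks these genes, and 9 of the 13 mitochondrial genes had a negative log2 fold change. The log2 ratio of the mitochondrial to the nuclear sum was -1.39, -1.01 and -0.7 in Ctrl and 0.03, 0.14 and 0.03 in CC-115. In edgeR's quasi-likelihood test at an adjusted p under 0.05, 67 of 82 nuclear genes fell, where 26% of all 22860 genes tested fell. Only 1 rose, where 27.6% of all genes rose. The median log2 fold change was -0.77 over the nuclear genes and 0.03 over all genes.

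**Figure D1:**
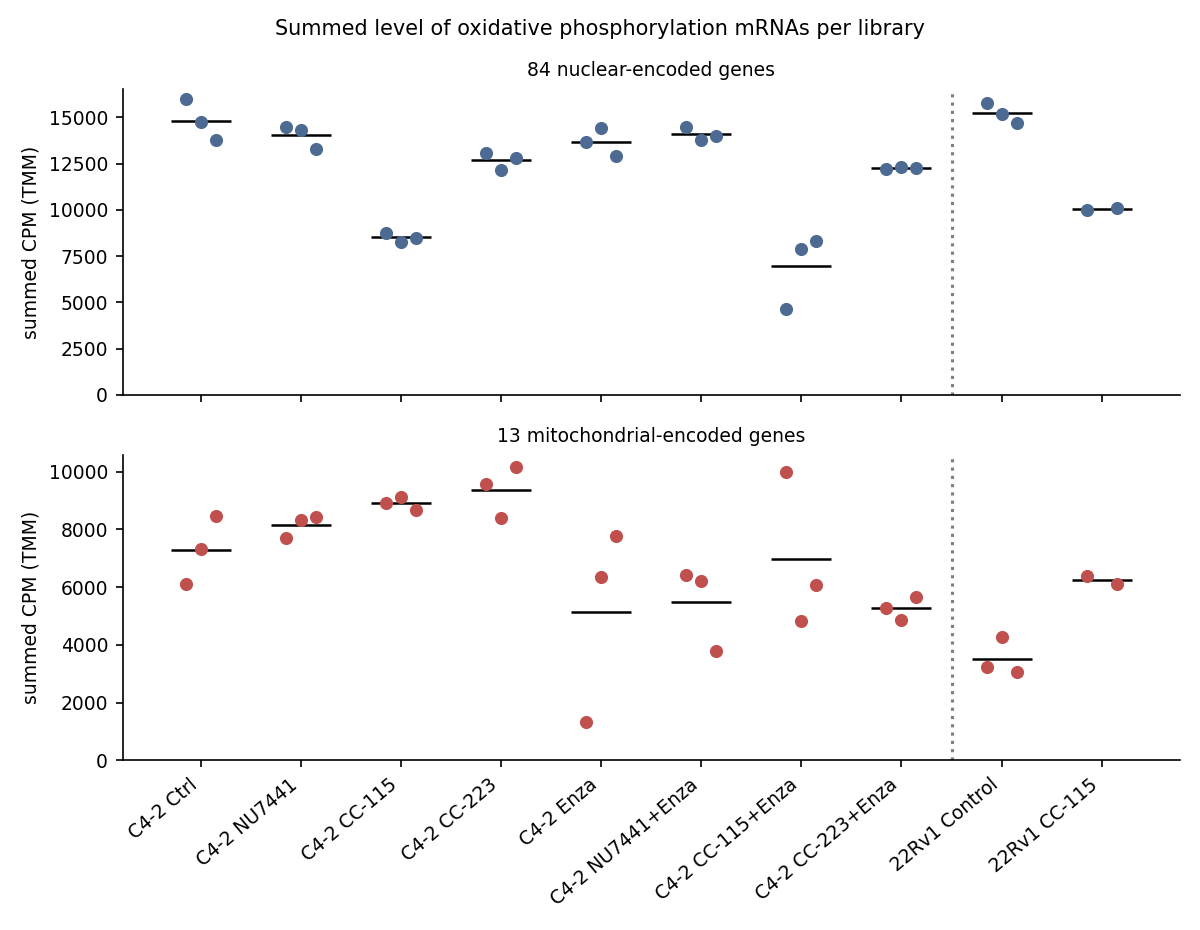
Summed TMM-scaled CPM of the 84 nuclear and of the 13 mitochondrial genes, 1 point per library, with the group mean as a bar, in C4-2 and in 22Rv1, which were scaled apart. The nuclear sums of the CC-115 libraries of C4-2 lie at 8751, 8278 and 8495 CPM, below all Ctrl libraries, and Enza replicate 1 has the lowest mitochondrial sum, 1314 CPM.

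In complex I, 27 of 36 nuclear genes fell, with a median of -0.66. NDUFB3, an accessory subunit of the membrane arm, was at 90.7, 76.8 and 70.2 CPM in Ctrl and 32.5, 29.1 and 31 CPM in CC-115. It fell by 1.36 ± 0.15 (SE) on the log2 scale (edgeR adjusted p = 1.71e-08), and the groups did not overlap. NDUFB6, another subunit of the membrane arm, fell by 1.17 ± 0.15, and NDUFA9, an accessory subunit of the matrix arm, by 0.76 ± 0.1. NDUFS1, which carries iron-sulfur clusters at the entry of electrons, was at 258, 232 and 219 CPM in Ctrl and 206, 198 and 204 CPM in CC-115. Its log2 fold change was -0.22 ± 0.13, with a 95% interval from -0.49 to 0.04, and did not pass the test. NDUFV1, which binds NADH, had -0.17 ± 0.17 and did not pass either.

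The gene that rose was NDUFA7, an accessory subunit of complex I, from 1.73, 1.55 and 2.06 CPM in Ctrl to 3.82, 4.54 and 4.64 CPM in CC-115. All CC-115 libraries were above Ctrl, at a log2 fold change of 1.28 ± 0.15 (edgeR adjusted p = 4.41e-08). Its row is uncertain, since 30% of its exonic bases overlap other genes, among them the ribosomal protein gene RPS28. NDUFB8 with 60% and ATP5ME with 61.6% share more than that, NDUFB6 shares 45.2%, and UQCRHL is a near copy of UQCRH. How the counting treated strand and multiple alignments is not given in the sources used here.

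All 4 genes of complex II fell, with a median of -0.87. SDHB, the iron-sulfur subunit, was at 139, 128 and 118 CPM in Ctrl and 70.5, 66 and 68.3 CPM in CC-115, without overlap, and fell by 0.91 ± 0.14. SDHA, the flavoprotein that oxidises succinate, fell by 0.83 ± 0.13, and the membrane anchors SDHC and SDHD by 0.65 ± 0.12 and 0.93 ± 0.19.

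All 10 nuclear genes of complex III fell, with a median of -0.84 and a range from -1.45 to -0.53. UQCR10, a small subunit, was at 175, 162 and 151 CPM in Ctrl and 62.1, 59.3 and 57.1 CPM in CC-115. Every treated library was below every control, and the gene fell by 1.45 ± 0.18 (edgeR adjusted p = 1.99e-07). UQCRFS1, the Rieske iron-sulfur protein, fell by 1.12 ± 0.16 and CYC1, cytochrome c1, by 0.9 ± 0.14. CYCS encodes cytochrome c, the carrier between complexes III and IV that also triggers caspase activation when it leaves mitochondria. It was at 666, 598 and 529 CPM in Ctrl and 225, 211 and 236 CPM in CC-115, without overlap, and fell by 1.42 ± 0.18 (edgeR adjusted p = 1.59e-07).

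Of 13 nuclear genes tested in complex IV, 9 fell and none rose, with a median of -0.68. COX7B, a small subunit, was at 213, 193 and 177 CPM in Ctrl and 87.1, 83.2 and 83.5 CPM in CC-115, without overlap, and fell by 1.2 ± 0.19 (edgeR adjusted p = 6.17e-06). COX5A and COX5B, which form part of the matrix side, fell by 0.73 ± 0.13 and 0.55 ± 0.13. COX7A2 had a log2 fold change of -0.29 ± 0.17 and did not pass.

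Of 18 nuclear genes of ATP synthase, 16 fell and none rose, with a median of -0.89. The subunits of the catalytic head, ATP5F1A and ATP5F1B, fell by 0.87 ± 0.17 and 0.96 ± 0.15. The largest fall of the set was in a gene of the c subunit, which forms the rotating ring in the membrane. The c subunit is encoded by 3 genes that differ in their import peptide and give the same mature protein. ATP5MC1 (hg19 chr17:46970127-46973233) was at 143, 138 and 133 CPM in Ctrl and 37.2, 37.6 and 37 CPM in CC-115. It fell by 1.89 ± 0.11, which is 3.7-fold (edgeR adjusted p = 3.37e-13). ATP5MC3 (hg19 chr2:176040986-176049335) was at 256, 246 and 232 CPM and 85.8, 84.9 and 81.2 CPM, and fell by 1.54 ± 0.15. Both genes were far apart between the groups. ATP5MC2 (hg19 chr12:54026510-54071192) was at 164, 161 and 154 CPM and 149.6, 145 and 143 CPM. Its groups lay close together without overlap, and its log2 fold change of -0.13 ± 0.15, with a 95% interval from -0.43 to 0.17, did not pass the test.

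**Figure D2:**
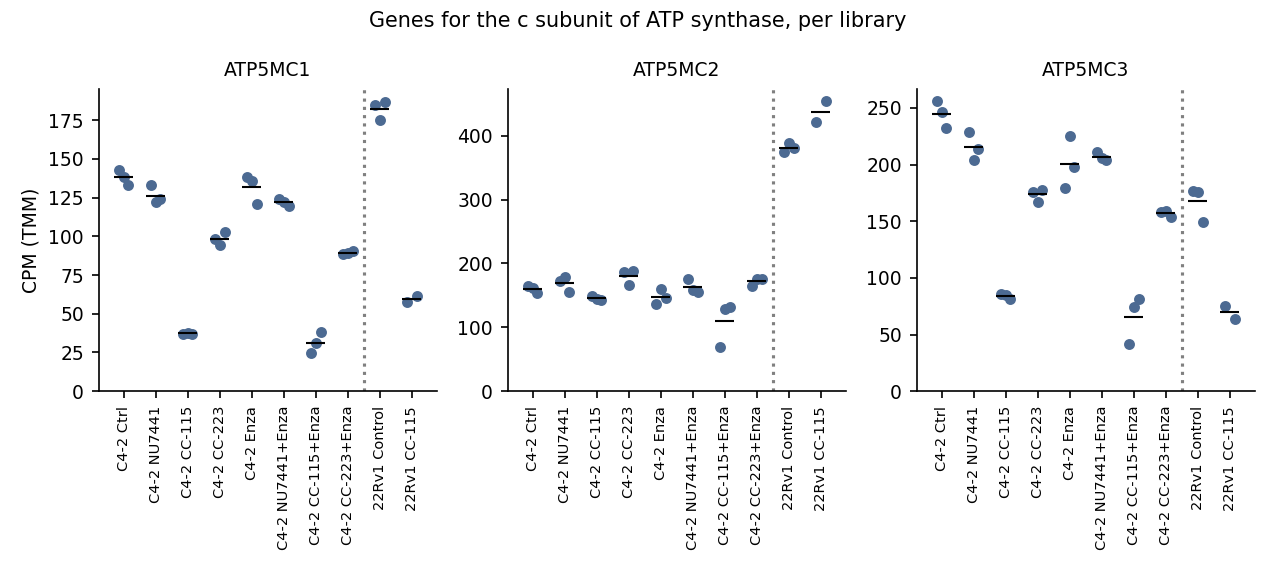
TMM-scaled CPM of the c-subunit genes ATP5MC1, ATP5MC2 and ATP5MC3 in each library (points) with the group mean (bar), for the C4-2 and 22Rv1 groups. With CC-115 in C4-2, ATP5MC1 lies at 37.2, 37.6 and 37 CPM against 143, 138 and 133 CPM in Ctrl, and ATP5MC2 at 149.6, 145 and 143 CPM against 164, 161 and 154 CPM.

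No mitochondrial gene passed edgeR's test for CC-115 in C4-2, where 1 had an unadjusted p under 0.05 and DESeq2 called 0. The median log2 fold change was -0.17. MT-CO1 (MT 5904-7445) was at 1871, 2169 and 2644 CPM in Ctrl and 3434, 3532 and 3320.4 CPM in CC-115, above every control library. MT-ND5 (MT 12337-14148), a proton-pumping subunit of complex I, was at 218, 315 and 264 CPM and 142, 162 and 156 CPM, below every control library. Their log2 fold changes were 0.62 ± 0.36 (edgeR adjusted p = 0.15) and -0.79 ± 0.35 (edgeR adjusted p = 0.0591). This fit shared its spread with the Enza libraries. Without Enza replicate 1 and CC-115+Enza replicate 1, MT-CO1 rose (0.62, edgeR adjusted p = 0.00252) and MT-ND5 and MT-ND6 fell (-0.79, edgeR adjusted p = 0.00101, and -0.66, edgeR adjusted p = 0.045). With the Ctrl and CC-115 libraries alone 6 were called: MT-CO1, MT-CO2 and MT-ND3 rose and MT-ND4L, MT-ND5 and MT-CYB fell. The share of all genes called in that smaller fit is not given here. In the fit with all libraries 26% of all genes fell and 27.6% rose.

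**Figure D3:**
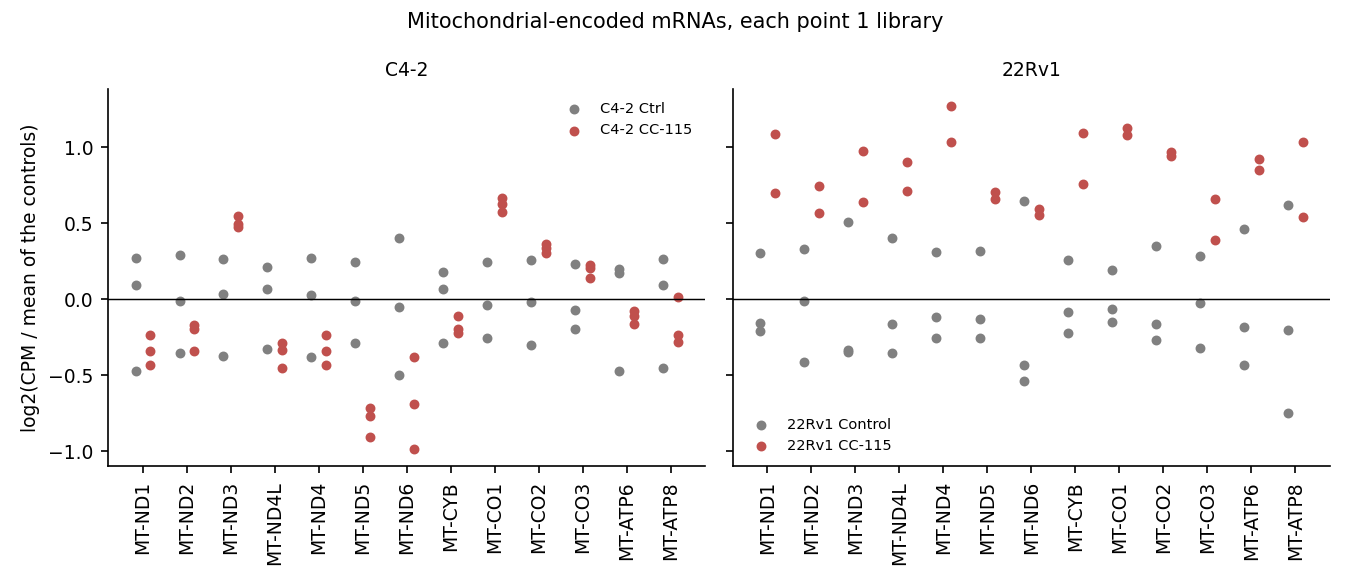
Log2 ratio of the CPM of each mitochondrial mRNA to the mean of the controls of its line, 1 point per library, in C4-2 (3 Ctrl, 3 CC-115) and 22Rv1 (3 Control, 2 CC-115). In C4-2 the CC-115 points of MT-CO1 lie above all controls and those of MT-ND5 below them, and in 22Rv1 the fitted changes of the 13 genes run from 0.53 to 1.15.

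In 22Rv1, CC-115 also lowered nuclear genes, and mitochondrial mRNAs rose. The nuclear sum was 15768, 15170.1 and 14697 CPM in Control and 10002 and 10126 CPM in CC-115. The mitochondrial sum was 3233, 4274 and 3063 CPM and 6405 and 6124 CPM. Neither sum overlapped between the groups. By edgeR, 62 of 80 nuclear genes fell and 1 rose, where 20.7% of all 19392 genes tested fell and 20.2% rose. Their median was -0.69, against -0.02 over all genes. Of the 13 mitochondrial genes 11 rose and none fell, with a median of 0.82. That count was 5 without CC-115 replicate 2 and 5 without Control replicate 1, where 12.2% and 13.2% of all genes rose. Mitochondrial ribosomal RNA took 0.0274, 0.0698 and 0.0585% of counts in Control and 0.0741 and 0.1121% in CC-115. Nuclear protein-coding genes took 74.07, 75.96 and 74.65% and 66.15 and 68.18%. The part of either in the result was not tested.

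The largest nuclear fall in 22Rv1 was that of CYCS, from 269, 279 and 159.7 CPM in Control to 59.9 and 33.1 CPM in CC-115. Control replicate 3 was low and yet above both treated libraries, and the gene fell by 2.34 ± 0.32 (edgeR adjusted p = 0.00128). NDUFB3 went from 29, 25.3 and 24.9 CPM to 7.62 and 7.63 CPM, without overlap, and fell by 1.79 ± 0.17. NDUFB6 fell by 1.77 ± 0.2 and SDHD by 1.7 ± 0.38. Like CYCS, both were lowest of their groups in Control replicate 3 and CC-115 replicate 2. SDHD was there at 29.1 and 8.01 CPM, against group maxima of 51.8 and 18.6 CPM. ATP5MC1 was at 185, 175 and 187 CPM in Control and 57.4 and 61.5 CPM in CC-115, and fell by 1.62 ± 0.12 (edgeR adjusted p = 0.000157). ATP5MC3 fell by 1.27 ± 0.14. ATP5MC2 was at 375, 389 and 380.3 CPM and 421 and 454 CPM, above every control, but its log2 fold change of 0.2 ± 0.1, with a 95% interval from -0.03 to 0.43, did not pass. The nuclear gene that rose was again NDUFA7, by 1.12 ± 0.17, with the limit given on its row.

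Among the mitochondrial genes of 22Rv1, MT-ND4, a proton-pumping subunit of complex I, was at 45.8, 67.8 and 50.6 CPM in Control and 112 and 132 CPM in CC-115. It rose by 1.15 ± 0.18 (edgeR adjusted p = 0.00218). MT-CO1 was at 964, 1224 and 1025 CPM and 2264 and 2341 CPM, and rose by 1.1 ± 0.12 (edgeR adjusted p = 0.000454). For both genes the treated libraries lay above all controls. MT-CYB, the mitochondrial subunit of complex III, rose by 0.94 ± 0.17 and MT-ATP6, a membrane subunit of ATP synthase, by 0.89 ± 0.24. MT-ATP6 did not pass without CC-115 replicate 2 (0.85, edgeR adjusted p = 0.0721) or without Control replicate 1 (0.71, edgeR adjusted p = 0.0526). MT-ND6 at 0.57 ± 0.34 and MT-ATP8 at 0.81 ± 0.36 did not pass, and both were under 10 CPM in each 22Rv1 library.

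A joint fit of the Ctrl and CC-115 libraries of both lines tested whether the effect of CC-115 differed between them. A lower value in C4-2 is a larger fall, a smaller rise, or a fall against a rise in 22Rv1. The log2 fold change was lower in C4-2 for 10 of 13 mitochondrial genes and higher for none, with a median difference of -1.05. For the nuclear genes it was lower in C4-2 for 17 of 82 and higher for 2, where 15.2% and 12.3% of all 22922 genes passed in these directions. The mitochondrial count was 6 and 5 when 22Rv1 CC-115 replicate 1 or 2 was left out, and 4 without the filter on low counts. The nuclear count of 19 ran from 11 without 22Rv1 CC-115 replicate 2 to 31 without replicate 1, and was 12 without Control replicate 2 and 12 without C4-2 Ctrl replicate 2. In these fits with a library left out 20.2% to 34.7% of all genes were called, against 27.5% with all libraries. The lines came in separate tables, so that line and experiment cannot be told apart.

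Complex III held 4 of the nuclear genes with a lower log2 fold change in C4-2. UQCRC1, a core protein of complex III, was at 311, 298 and 278 CPM in C4-2 Ctrl and 165, 163 and 169 CPM with CC-115. In 22Rv1 it was at 514, 516 and 515 CPM in Control and 463 and 526 CPM with CC-115. The groups were apart in C4-2 and overlapped in 22Rv1, and the difference of the log2 fold changes was -0.82 ± 0.1 (edgeR adjusted p = 6.99e-05). For CYC1 it was -0.75 ± 0.11 and for COX6B1, a complex IV subunit, -0.69 ± 0.13. ATP5PO, the stalk subunit of ATP synthase, fell by 0.79 ± 0.14 in C4-2 and by 1.37 ± 0.13 in 22Rv1, and here the difference was 0.53 ± 0.13 (edgeR adjusted p = 0.00861). Across the 80 nuclear genes tested in both lines the log2 fold changes had a Pearson r of 0.79 and a Spearman rho of 0.69, as a description across genes that share their libraries.

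**Figure D4:**
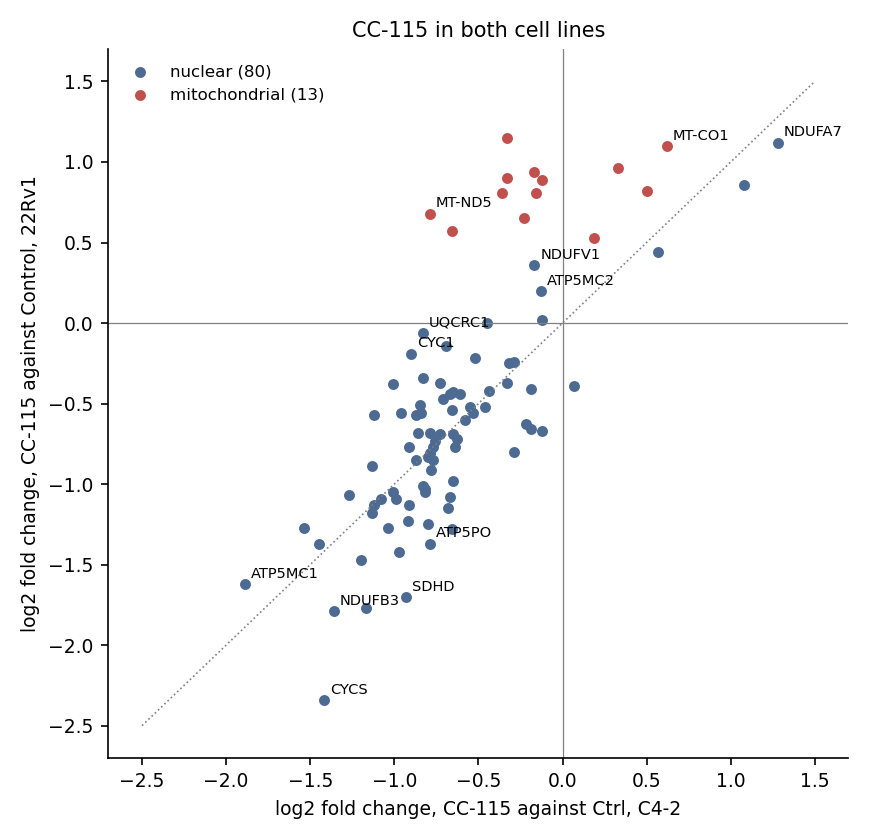
Log2 fold change with CC-115 in C4-2 (horizontal) against that in 22Rv1 (vertical), 1 point per gene, for 80 nuclear and 13 mitochondrial genes. Most nuclear genes lie below 0 on both axes, and the mitochondrial genes lie between 0.53 and 1.15 on the vertical axis.

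CC-223 lowered fewer nuclear genes in C4-2, and by less. Their sum was 13057, 12160.1 and 12794 CPM, below all Ctrl libraries and above all CC-115 libraries. By edgeR 11 of 82 fell, where 10.9% of all genes fell, and none rose, where 12.9% of all genes rose. The share that fell was thus near that of all genes. CYCS was at 387, 341 and 336 CPM, below every Ctrl library, and fell by 0.75 ± 0.17 (edgeR adjusted p = 0.00228). UQCRFS1 fell by 0.64 ± 0.15, CYC1 by 0.56 ± 0.14 and SDHB by 0.5 ± 0.14. In ATP synthase ATP5MC1 fell by 0.49 ± 0.11 and ATP5MC3 by 0.49 ± 0.15, while no gene of complex IV passed. In some other fits the number that fell and the share of all genes that fell were both higher. The number was 44 with the Ctrl and CC-223 libraries alone, where 25.5% of all genes fell. It was 41 without Enza replicate 1 and CC-115+Enza replicate 1, where 20.4% fell, and 2 then rose, where 22.5% of all genes rose. It was 25 with a stricter filter, where 20.2% of all genes fell, and 17 without Ctrl replicate 3, where 12.8% fell.

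The mitochondrial sum with CC-223 was 9585, 8409 and 10156 CPM, and its range overlapped that of Ctrl. No mitochondrial gene passed edgeR's test, 0 had an unadjusted p under 0.05 and DESeq2 called 0. MT-CO1 was at 3259, 3046 and 3500.0 CPM, above every Ctrl library, with a log2 fold change of 0.55 ± 0.36. It rose without Enza replicate 1 and CC-115+Enza replicate 1 (0.55, edgeR adjusted p = 0.00957) and with the Ctrl and CC-223 libraries alone (0.52, edgeR adjusted p = 0.000341).

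With NU7441 the nuclear sum was 14483, 14334 and 13265 CPM and the mitochondrial sum 7689.9, 8324 and 8429 CPM, and both ranges overlapped Ctrl. No nuclear gene passed edgeR's test, where 1.11% of all genes fell and 2.28% rose, 3 had an unadjusted p under 0.05 and DESeq2 called 0. No mitochondrial gene passed edgeR's test, 0 had an unadjusted p under 0.05 and DESeq2 called 0. CYCS was at 427, 419.8 and 439.7 CPM, below every Ctrl library, with a log2 fold change of -0.48 ± 0.17 (edgeR adjusted p = 0.131). When Enza replicate 1 and CC-115+Enza replicate 1 were left out, 11 nuclear genes fell and 2 rose, where 11.3% and 10.4% of all genes did so. With the Ctrl and NU7441 libraries alone 7 fell, where 7.58% of all genes fell.

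**Figure D5:**
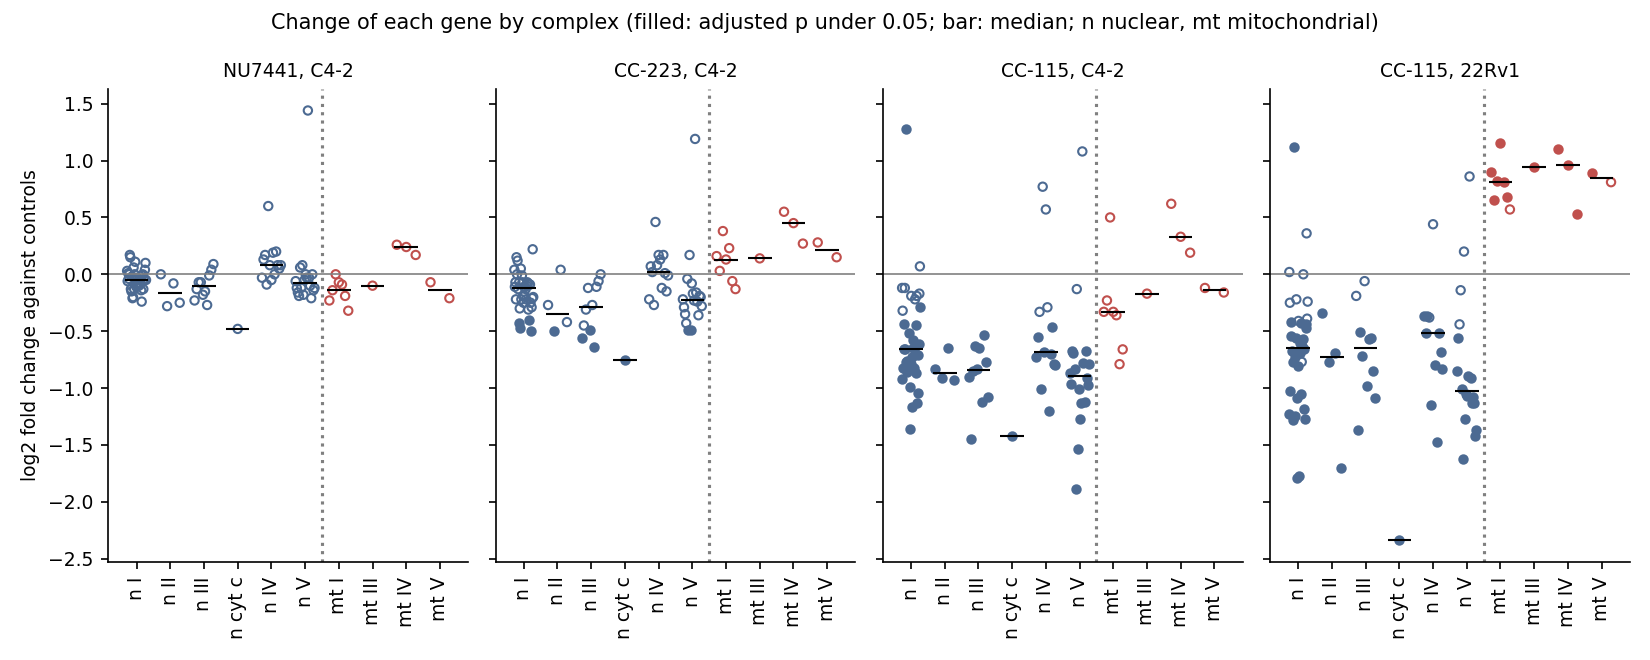
Log2 fold change against controls of each tested gene, by genome and complex, for NU7441, CC-223 and CC-115 in C4-2 and CC-115 in 22Rv1; filled points passed edgeR's test at an adjusted p under 0.05 and bars are medians. The medians over the nuclear genes are -0.05, -0.16, -0.77 and -0.69 in that order.

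The inhibitors were compared at the same dose and time in 3 pairs, with p-values adjusted over all genes within a pair. The pairs share libraries with each other and with the comparisons above. Against NU7441, CC-115 gave lower levels of 67 of 82 nuclear genes and a higher level of 1, where 24.5% and 24.5% of all genes were so. Against CC-223 it gave lower levels of 58 and a higher level of 1, where 22.7% and 20.5% of all genes were so. The higher gene was NDUFA7 in both. ATP5MC1 differed by -1.4 on the log2 scale from CC-223 (95% interval -1.63 to -1.17) and by -1.76 from NU7441 (-2.0 to -1.53). CYCS differed by -0.66 (-1.02 to -0.31) and -0.94 (-1.3 to -0.58). Both genes passed the test in both pairs.

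Some genes passed no test between CC-115 and CC-223. NDUFS7, a core iron-sulfur subunit of complex I, differed by -0.21 (95% interval -0.47 to 0.04) and UQCRC1 by -0.34 (-0.64 to -0.04), with edgeR adjusted p-values of 0.167 and 0.0598. ATP5MC2 differed by -0.3 (-0.6 to -0.0). NU7441 and CC-223 differed in 2 nuclear genes, both higher with NU7441, where 3.2% of all genes were higher and 4.12% lower. These were NDUFS7 by 0.44 (0.19 to 0.7) and ATP5MC1 by 0.36 (0.14 to 0.59). CYCS differed by 0.27 (-0.08 to 0.63) and did not pass. The count of 2 became 25 with the libraries of the pair alone, where 21.3% of all genes were called, and 28 without Enza replicate 1 and CC-115+Enza replicate 1, where 25.2% were. It became 0 without CC-223 replicate 1, CC-223 replicate 2 or NU7441 replicate 1, and 1 without CC-223 replicate 3 or NU7441 replicate 3, where 3.72% to 4.05% were. No mitochondrial gene passed edgeR's test in any pair. Between CC-115 and NU7441 0 had an unadjusted p under 0.05 and DESeq2 called 0, between CC-115 and CC-223 1 had an unadjusted p under 0.05 and DESeq2 called 0, and between NU7441 and CC-223 0 had an unadjusted p under 0.05 and DESeq2 called 0. MT-ND5 differed by -0.73 (-1.45 to -0.02) between CC-115 and CC-223, and passed without Enza replicate 1 and CC-115+Enza replicate 1 (-0.73, edgeR adjusted p = 0.00224).

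Enza alone moved few nuclear genes past the test. By edgeR 1 of 82 fell and none rose, where 6.75% of all genes fell and 9.35% rose. It was ATP5PF, coupling factor 6 of ATP synthase, at 26.3, 62.1 and 54.3 CPM against 78.4, 70.8 and 73.4 CPM in Ctrl. Enza replicate 1 was far below the others, and the log2 fold change of -0.64 ± 0.21 (edgeR adjusted p = 0.0356) became -0.39 without it (edgeR adjusted p = 0.164). Nor did the gene pass without Ctrl replicate 1 (-0.63, edgeR adjusted p = 0.0998). No mitochondrial gene passed edgeR's test, 2 had an unadjusted p under 0.05 and DESeq2 called 0. Without Enza replicate 1 and CC-115+Enza replicate 1, MT-ND2 rose (0.78, edgeR adjusted p = 0.0364), as did MT-ND5 (0.61, edgeR adjusted p = 0.0347) and MT-ND6 (1.05, edgeR adjusted p = 0.0155), and 15 nuclear genes fell and 1 rose, where 11.7% and 9.64% of all genes did so. The count of nuclear calls was also 20 without Enza replicate 2, 7 without Enza replicate 3, 0 without Ctrl replicate 1, 2 without Ctrl replicate 2 and 4 without Ctrl replicate 3. In the same order 21.2%, 20.1%, 7.67%, 11.7% and 13.9% of all genes were called. Mitochondrial ribosomal RNA took 0.8181, 2.8889 and 5.3663% of counts with Enza and 0.3356, 1.6417 and 0.5462% in Ctrl, and its part in these results was not tested.

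The combinations were compared with Enza and share its libraries. The nuclear sum was 13668, 14427 and 12917 CPM with Enza, and all CC-115+Enza libraries lay below it. By edgeR 74 of 82 nuclear genes fell with CC-115+Enza and 2 rose, where 30.2% and 28.5% of all genes did so. The median was -0.92 over the nuclear genes and 0.03 over all genes, and with library sizes from nuclear protein-coding genes the median of all genes was 0.18. With Enza replicate 1 and CC-115+Enza replicate 1 left out, 72 fell and 2 rose, where 29.9% and 27.9% of all genes did so. ATP5MC1 was at 24.6, 30.9 and 38.3 CPM against 138, 136 and 121 CPM in Enza, without overlap, and fell by 2.07 ± 0.11 (edgeR adjusted p = 6.61e-14). NDUFB3 fell by 1.75 ± 0.15 and ATP5MC3 by 1.61 ± 0.15. Besides NDUFA7, at 1.3 ± 0.15, NDUFV2, a core subunit of complex I, rose by 0.53 ± 0.12. With the Enza and CC-115+Enza libraries alone NDUFV2 did not pass (0.54, edgeR adjusted p = 0.0516). Its partner NDUFV1 fell by 0.52 ± 0.17 (edgeR adjusted p = 0.00922). NDUFV1 was at 337, 201 and 175 CPM in Enza and 120.4, 189 and 187 CPM in CC-115+Enza, with replicate 1 apart in both groups, and without these libraries its log2 fold change was 0.01 (edgeR adjusted p = 0.957).

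The mitochondrial genes of the combinations depended on the same libraries. MT-CO1 was at 4721, 1876 and 2236 CPM in CC-115+Enza and 429, 1853 and 2243 CPM in Enza. It rose by 0.96 ± 0.36 (edgeR adjusted p = 0.0246) although the groups overlapped, and without replicate 1 of each its log2 fold change was 0.01 (edgeR adjusted p = 0.978). Without these libraries 9 of 13 mitochondrial genes fell with CC-115+Enza and none rose, with a median of -1.33, and 5 fell when Enza replicate 1 alone was left out. Of all genes 29.9% and 26.7% fell in these fits. For CC-223+Enza none passed edgeR's test with all libraries, 1 had an unadjusted p under 0.05 and DESeq2 called 0. There 9 fell without both libraries and 8 without Enza replicate 1 alone, where 18.8% and 10.6% of all genes fell. For NU7441+Enza none passed edgeR's test with all libraries, 0 had an unadjusted p under 0.05 and DESeq2 called 0, and 7 fell without both, where 0.762% of all genes fell. These comparisons then rest on Enza replicates 2 and 3, the libraries with the highest share of mitochondrial ribosomal RNA.

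Nuclear genes moved less with the other combinations. With CC-223+Enza 17 fell and 1 rose, where 15% and 13% of all genes did so. CYC1 fell by 0.72 ± 0.14, NDUFS7 by 0.68 ± 0.12 and UQCRFS1 by 0.68 ± 0.15, and COX7B2 rose by 0.57 ± 0.2 (edgeR adjusted p = 0.0339). The call of COX7B2 was lost without Enza replicate 1 (0.55, edgeR adjusted p = 0.0821), without Enza replicate 3 (0.45, edgeR adjusted p = 0.132) and without any 1 of the CC-223+Enza libraries, with log2 fold changes from 0.52 to 0.58 and edgeR adjusted p-values from 0.0685 to 0.106. When Enza replicate 1 and CC-115+Enza replicate 1 were left out, 30 fell and 3 rose, where 18.8% and 17.4% of all genes did so. Without Enza replicate 1 alone 10 fell, where 10.6% of all genes fell. With NU7441+Enza no nuclear gene passed edgeR's test, where 0.157% of all genes fell and 0.223% rose, 6 had an unadjusted p under 0.05 and DESeq2 called 1. Without both libraries 1 passed, where 2.59% of all genes did so.

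The interaction of CC-115 with Enza passed edgeR's test for no gene of the set, where 2.27% of all genes were lower and 0.993% higher. Of the nuclear genes 11 had an unadjusted p under 0.05 and DESeq2 called 0, and of the mitochondrial genes 0 had an unadjusted p under 0.05 and DESeq2 called 0. Without Enza replicate 1 and CC-115+Enza replicate 1 it was called for UQCRC2 (0.39, edgeR adjusted p = 0.0042) and MT-ND1 (-1.29, edgeR adjusted p = 0.0464), where 2.72% of all genes were higher and 3.45% lower. The interaction of CC-223 with Enza passed for none either, where 0.249% and 0.127% of all genes passed. Of the nuclear genes 0 had an unadjusted p under 0.05 and DESeq2 called 0, and of the mitochondrial genes 0 had an unadjusted p under 0.05 and DESeq2 called 0. With these libraries left out, the interaction with CC-223 was called for 6 mitochondrial genes, all lower, among them MT-ND1 (-1.58, edgeR adjusted p = 0.0223), where 1.32% of all genes were lower.

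Other genes of the pathway were counted from lists kept apart from the set. The shares to read these counts against are 26% of all genes lower and 27.6% higher with CC-115 in C4-2, and 20.7% and 20.2% in 22Rv1. With CC-115 in C4-2, 25 of 49 assembly factors fell and 7 rose, with a median of -0.37. NDUFAF8, SDHAF3 and TMEM70, which help to build complexes I, II and V, fell by 1.26 ± 0.13, 1.31 ± 0.17 and 1.3 ± 0.16. Of 8 subunits and partners outside the name rule 6 fell and 1 rose. They include NDUFAB1, the acyl carrier protein of complex I, which fell by 1.31 ± 0.14, and ATP5IF1, the inhibitor of ATP synthase, which fell by 1.16 ± 0.13. In the citric acid cycle 10 of 14 fell and none rose, with FH, fumarase, lower by 1.26 ± 0.15. Of 16 mitochondrial import genes 11 fell and 1 rose, and the channel TOMM40 fell by 1.11 ± 0.14. In 22Rv1 the falls and rises were 21 and 4 of 49 assembly factors, 8 and 1 of 14 in the citric acid cycle, and 7 and 2 of 16 in import.

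Genes that serve the mitochondrial transcripts were mixed. Of 19 genes of mitochondrial RNA processing and stability, 14 fell and 1 rose with CC-115 in C4-2, where 26% of all genes fell and 27.6% rose. In 22Rv1 11 of 19 fell and none rose, where 20.7% of all genes fell and 20.2% rose, in the line in which mitochondrial mRNAs rose. SLIRP, a partner of the RNA-stabilising protein LRPPRC, fell by 1.39 ± 0.14 in C4-2 and 1.68 ± 0.16 in 22Rv1, and TRMT10C, a subunit of mitochondrial RNase P, by 1.41 ± 0.18 and 1.79 ± 0.42. Of 15 genes of mitochondrial transcription and genome maintenance, 7 fell and 6 rose in C4-2, read like the next list against the same shares of 26% and 27.6%. The nuclease MGME1 fell by 1.45 ± 0.13, the elongation factor TEFM by 0.94 ± 0.13, and the helicase TWNK rose by 0.93 ± 0.13. Of the core transcription factors, named after their values were seen, TFAM fell by 0.59 ± 0.16, while POLRMT at -0.27 ± 0.18 and TFB2M at -0.09 ± 0.13 did not pass. In 22Rv1 TFB2M fell by 0.72 ± 0.16, while TFAM at -0.91 ± 0.35 and POLRMT at 0.42 ± 0.18 did not pass. Of 13 mitochondrial translation factors 6 fell and 3 rose in C4-2. C1QBP, a matrix protein needed for mitochondrial translation, fell by 1.17 ± 0.14, and the release and recycling factors MTRF1L and MRRF rose by 1.02 ± 0.15 and 1.17 ± 0.14.

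Of 15 nuclear regulators of respiratory genes, 7 fell and 2 rose with CC-115 in C4-2, where 26% of all genes fell and 27.6% rose. Over this list the log2 fold changes ran from -1.75 to 0.52, with a median of -0.2, and not all called genes are named here. PPARGC1B, a coactivator of respiratory genes, fell by 1.47 ± 0.14 and NRF1 by 0.58 ± 0.1. With CC-223 they fell by 0.7 ± 0.14 and 0.54 ± 0.1. In 22Rv1 PPARGC1B fell by 0.68 ± 0.17, and NRF1 at -0.12 ± 0.15 did not pass. Of 10 genes of the mitochondrial unfolded protein and integrated stress responses, 3 rose and 4 fell with CC-115 in C4-2, read against the same shares. The stress transcription factors ATF4 and DDIT3 rose by 2.01 ± 0.18 and 2.37 ± 0.18 and the secreted factor GDF15 by 1.71 ± 0.18. In 22Rv1 they rose by 1.74 ± 0.11, 1.47 ± 0.15 and 1.65 ± 0.14. Those that fell in C4-2, named after their values were seen, were the chaperonins HSPE1 by 0.96 ± 0.21 and HSPD1 by 0.58 ± 0.17, the protease subunit CLPP by 0.49 ± 0.11, and FGF21, a secreted factor with 13, 10 and 13 raw counts in Ctrl and 0, 2 and 1 in CC-115, too few for a fold change to be given. In 22Rv1 HSPE1 and HSPD1 fell by 1.23 ± 0.28 and 1.12 ± 0.17, and CLPP at 0.01 ± 0.14 did not pass. With CC-223 none of the 10 rose and 7 fell, where 10.9% of all genes fell and 12.9% rose. DDIT3 fell by 0.48 ± 0.18, GDF15 by 1.02 ± 0.18, the pseudokinase TRIB3 by 1.13 ± 0.13, the transcription factor ATF5 by 0.83 ± 0.13, the protease LONP1 by 0.58 ± 0.18 and HSPD1 by 0.49 ± 0.17, and FGF21 had 0, 2 and 0 counts. ATF4 at -0.46 ± 0.17 did not pass. The luminal markers moved with CC-115 in C4-2 as well, 7 of 10 higher and 3 lower, with summed levels of 12364 to 12767 CPM against 5489.6 to 5788 CPM in Ctrl, and their part in the results was not tested.

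Exonic length had little relation to the size of the change. Across the 82 nuclear genes tested in C4-2, the log2 fold change with CC-115 and the log2 length had a Pearson r of 0.06 and a Spearman rho of 0.19, as a description across genes of the same libraries.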

How the data were processed

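Total RNA libraries were made with a stranded kit, per the labels. For each line the authors deposited a table of unnormalised counts by Ensembl identifier, with exonic lengths. Per the submitters' processing notes, the authors used STAR 2.5.2a, featureCounts 1.5.0-p3, DESeq2 1.14.1 and build hg19. The sources used here give neither the annotation release nor the settings for strand and multiple alignments.

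Symbols and gene types came from GENCODE release 29 by identifier. Counts were filtered with filterByExpr, scaled by TMM and tested with edgeR 4.0.16 (R 4.3.3, limma 3.58.1) by quasi-likelihood F-tests, with Benjamini-Hochberg adjustment over all genes and calls at an adjusted p under 0.05. All 24 C4-2 libraries were fitted together and 22Rv1 apart. A standard error is the absolute log2 fold change over the square root of F. Scripts were tested on simulated data (Python 3.11.15, matplotlib 3.10.9, numpy 2.4.6, pandas 2.3.3). The labels do not say that replicates were separate cultures, so p-values measure the spread between these libraries, which may be technical.

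The members, lists and rules were chosen with earlier results of these data known. Named were the mitochondrial genes, a fixed core of nuclear genes, tissue-restricted isoforms, the 4 called nuclear genes with the largest change in each direction per comparison (average log2 CPM of at least 1, libraries not overlapping), and up to 3 called genes per list. ATP5MC2, and NDUFB3, NDUFB6, COX7B, ATP5MC1, ATP5MC3, NDUFS7, TFAM, POLRMT, TFB2M and the stress genes other than ATF4, DDIT3 and GDF15, in comparisons where they fell outside the rule, were named after their values were seen, and the promoters shown were also chosen then. Alternatives were DESeq2 1.42.0, other size factors, library sizes and filters, the libraries fitted, single libraries left out and a replicate block.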

Additional observations from a re-analysis of the deposited data

Results flagged for a closer look

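The effect of CC-115 differed between C4-2 and 22Rv1 by the test of the difference itself (edgeR's quasi-likelihood test in the joint fit) for 20 named genes. Values are the log2 fold change in C4-2 minus that in 22Rv1. For the mitochondrial genes they were MT-ND4 -1.53, MT-ND5 -1.52, MT-ND1 -1.29, MT-ND6 -1.28, MT-ND4L -1.21, MT-CYB -1.16, MT-ATP6 -1.05, MT-ND2 -0.94, MT-CO2 -0.67 and MT-CO1 -0.53, with adjusted p-values from 0.000278 to 0.043. For nuclear genes with a lower log2 fold change in C4-2 they were UQCRC1 -0.82, CYC1 -0.75, COX6B1 -0.69, UQCRFS1 -0.6, NDUFV1 -0.58, SDHA -0.55, ATP5F1B -0.45 and COX5A -0.41. Their edgeR adjusted p-values ran from 6.99e-05 to 0.0139. For nuclear genes with a higher log2 fold change in C4-2 they were NDUFA3 0.5 and ATP5PO 0.53, with edgeR adjusted p-values of 0.0055 and 0.00861. With single libraries left out in turn, MT-ATP6, MT-CO1, MT-CO2, MT-ND2 and MT-ND6 lost the call in at least 1 of these fits, and the others kept it.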

How the results depend on the processing

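Over all alternatives the number of nuclear genes called was 65 to 78 for CC-115 against Ctrl, 59 to 77 for CC-115+Enza against Enza, 48 to 66 for 22Rv1 and 42 to 72 for CC-115 against CC-223. Of 167 called values of named genes, 127 kept the call and direction in every alternative run, and 1 reversed, NDUFV1 for CC-115+Enza against Enza without Enza replicate 1 and CC-115+Enza replicate 1 (0.01, edgeR adjusted p = 0.957). The counts that moved were as follows, and the cause was not tested. As given above for several comparisons, the share of all genes called moved with the setting too. A count below is therefore no result about these genes by itself. Without the filter on low counts, nuclear calls were 1 for NU7441 against Ctrl, 15 for Enza against Ctrl, 2 for NU7441+Enza against Enza, 1 for NU7441 against CC-223, 2 for CC-115 by Enza interaction and 12 for CC-115 effect in C4-2 minus 22Rv1 and mitochondrial calls were 5 for CC-115 against Ctrl, 2 for CC-223 against Ctrl, 5 for Enza against Ctrl, 7 for NU7441+Enza against Enza, 7 for CC-115+Enza against Enza, 9 for CC-223+Enza against Enza, 3 for CC-115 against NU7441, 6 for CC-115 against CC-223, 1 for CC-115 by Enza interaction, 6 for CC-223 by Enza interaction and 4 for CC-115 effect in C4-2 minus 22Rv1. With only the libraries compared, nuclear calls were 7 for NU7441 against Ctrl, 44 for CC-223 against Ctrl, 0 for Enza against Ctrl and 25 for NU7441 against CC-223 and mitochondrial calls were 6 for CC-115 against Ctrl, 2 for CC-223 against Ctrl, 0 for CC-115+Enza against Enza, 5 for CC-115 against NU7441, 7 for CC-115 against CC-223 and 5 for NU7441 against CC-223. Without Enza replicate 1 and CC-115+Enza replicate 1, nuclear calls were 13 for NU7441 against Ctrl, 43 for CC-223 against Ctrl, 16 for Enza against Ctrl, 1 for NU7441+Enza against Enza, 33 for CC-223+Enza against Enza, 28 for NU7441 against CC-223 and 1 for CC-115 by Enza interaction and mitochondrial calls were 3 for CC-115 against Ctrl, 1 for CC-223 against Ctrl, 3 for Enza against Ctrl, 7 for NU7441+Enza against Enza, 9 for CC-115+Enza against Enza, 9 for CC-223+Enza against Enza, 1 for CC-115 against NU7441, 2 for CC-115 against CC-223, 1 for CC-115 by Enza interaction and 6 for CC-223 by Enza interaction. With a stricter filter, nuclear calls were 25 for CC-223 against Ctrl, 4 for Enza against Ctrl and 5 for NU7441 against CC-223. With DESeq2, nuclear calls were 4 for Enza against Ctrl and 1 for NU7441+Enza against Enza and mitochondrial calls were 2 for CC-115+Enza against Enza. With median-of-ratios size factors, nuclear calls were 2 for Enza against Ctrl and mitochondrial calls were 1 for CC-115 against Ctrl and 2 for CC-115+Enza against Enza. With library sizes from nuclear protein-coding genes, nuclear calls were 3 for Enza against Ctrl. When single libraries were left out, the calls ranged from 0 to 1 for CC-115 against Ctrl, mitochondrial, from 9 to 17 for CC-223 against Ctrl, nuclear, from 0 to 20 for Enza against Ctrl, nuclear, from 0 to 1 for Enza against Ctrl, mitochondrial, from 0 to 3 for NU7441+Enza against Enza, nuclear, from 1 to 5 for CC-115+Enza against Enza, mitochondrial, from 10 to 24 for CC-223+Enza against Enza, nuclear, from 0 to 8 for CC-223+Enza against Enza, mitochondrial, from 0 to 2 for NU7441 against CC-223, nuclear, from 0 to 3 for CC-115 by Enza interaction, nuclear, from 5 to 13 for 22Rv1 CC-115 against Control, mitochondrial, from 11 to 31 for CC-115 effect in C4-2 minus 22Rv1, nuclear and from 5 to 11 for CC-115 effect in C4-2 minus 22Rv1, mitochondrial. The replicate block gave 66 nuclear calls for CC-115 against Ctrl, 61 for 22Rv1 and 1 for NU7441 against CC-223. Same-numbered libraries had a median correlation of deviations of -0.00457, and 3 of 24 C4-2 libraries correlated best with their own number, so that the numbers were not taken as a pairing.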
